A study of Homo sapiens with 24 samples.

Results

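The response to small interfering RNA against IRF4 was compared between KMS-12-BM and KMS-12-PE, 2 multiple myeloma cell lines established from the bone marrow and the pleural effusion of the same patient, which carry a t(11;14) and express CCND1. The comparison used 12 of the 24 libraries of the series, chosen by their labels alone: 3 siIRF4 and 3 CTRL libraries of each line. Cells grew in RPMI 1640 with 10% fetal bovine serum, siIRF4 cells were electroporated with a pool of siRNAs and labelled with a time of 48 hours, and CTRL cells were labelled DMSO at 0 hours, with no control siRNA named. Knockdown, siRNA delivery, electroporation, DMSO and time therefore differ together between siIRF4 and CTRL and cannot be told apart, in both lines alike by the labels. Total RNA was sequenced and given as TPM, a share of transcripts corrected for gene length. The spread of each gene was estimated from all 24 libraries, so libraries outside the comparison also enter the standard errors and p-values. The labels do not call the replicates separate cultures, and the p-values then stand for the scatter between libraries alone. The question was whether, and for which genes, the effect of siIRF4 differed between the lines.

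The effect in a line is the mean log2(TPM + 1) of siIRF4 minus that of CTRL. The difference is the effect in KMS-12-BM minus the effect in KMS-12-PE, given with its standard error (±), so that a positive difference means a higher effect in KMS-12-BM. A gene was called when the limma test of that difference had a Benjamini-Hochberg adjusted p under 0.05 over all 15113 genes tested. Only the difference was tested, and the effects within a line are given as descriptions. Because 1 TPM was added, a gene at low level in a line has an effect near 0 there whatever its ratio.

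IRF4 is a transcription factor of the interferon regulatory factor family that plasma cells and myeloma cells depend on. It binds DNA with an ETS factor at composite elements, and at interferon-stimulated response elements that other family members also use. It takes part in switching a B cell to a plasma cell, in which the B cell program and antigen presentation by MHC class II are lowered and secretion is raised.

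Recovered totals were 18.3 to 25.3 M reads per library. The plasma cell markers TNFRSF17, XBP1 and MZB1 and the translocation target CCND1 were present in both lines, at CTRL means of 308, 350, 975 and 620 TPM in KMS-12-BM, against 193, 395, 596 and 497 TPM in KMS-12-PE. The B cell marker MS4A1 was under 1 TPM in both lines. The lines differed before any siRNA: PAX5, a B cell factor, had 11.3 TPM in KMS-12-BM CTRL and 0.00801 TPM in KMS-12-PE CTRL, whereas the plasma cell surface genes SDC1 and SLAMF7 had 6.05 and 1.76 TPM in KMS-12-BM CTRL and 182 and 159 TPM in KMS-12-PE CTRL.

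Signal of other lines and cell types moved with some groups, and bulk libraries cannot tell fewer cells of a type from less RNA per cell. Over 9 genes with at least 200 TPM in every MM1 library and low in KMS-12, the median level was 0.285% to 0.449% of the MM1 level in KMS-12-BM CTRL and 0.597% to 0.885% in KMS-12-PE CTRL. It was 0.0700% to 0.0825% in KMS-12-PE siIRF4. In KMS-12-BM siIRF4 it was 0.414% and 0.319% in replicates 2 and 3 and 1.11% in replicate 1, which stands apart. The summed level of myeloid markers was 151 to 188 TPM in KMS-12-PE CTRL, 39.1 to 54.8 TPM in KMS-12-PE siIRF4, 17.3 to 17.9 TPM in KMS-12-BM CTRL and 16.5 to 17.2 TPM in KMS-12-BM siIRF4, with S100A8 at 0 in all 6 KMS-12-BM libraries. Only 3 of the 9 myeloid markers were high enough to be tested, and the 2 called were S100A8 and S100A9, so the sum rests on few genes. Stromal markers summed to 177 to 235 TPM in KMS-12-PE CTRL, 109 to 126 TPM in KMS-12-PE siIRF4, 85.3 to 89.4 TPM in KMS-12-BM CTRL and 54.8 to 59.0 TPM in KMS-12-BM siIRF4. Epithelial markers summed to 240 to 265 and 171 to 194 TPM in the same order in KMS-12-PE, and to 210 to 216 and 215 to 227 TPM in KMS-12-BM. T and NK cell markers were higher in siIRF4, at 29.7 to 33.3 and 64.4 to 70.0 TPM in KMS-12-PE and 23.6 to 25.9 and 32.5 to 36.4 TPM in KMS-12-BM. Erythroid markers summed to 0.454 to 1.57 and 0.529 to 0.688 TPM in KMS-12-PE and 21.5 to 26.7 and 24.3 to 26.7 TPM in KMS-12-BM. A gene was termed open to admixture when its higher mean, in the line with the larger effect, was under 2% of its level in another of the 4 lines.

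**Figure D1:**
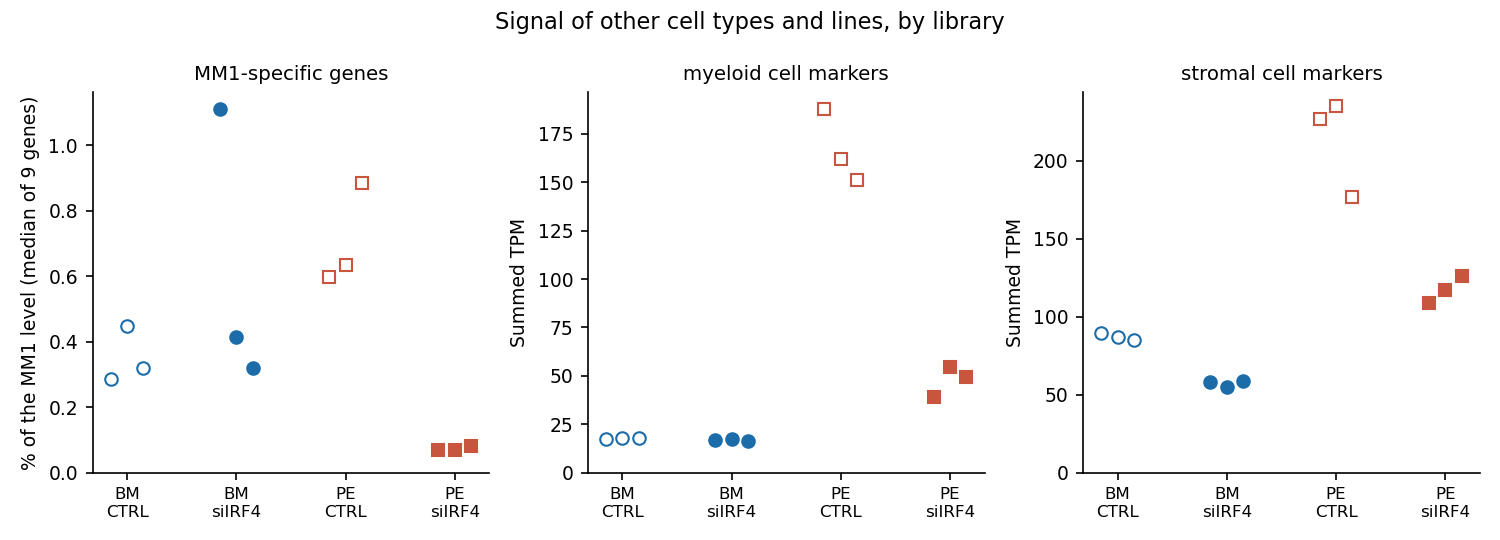
Signal of other lines and cell types in each KMS-12 library: the median of 9 MM1-specific genes as a percentage of their MM1 level, and the summed TPM of the myeloid and the stromal markers. Open symbols are CTRL and filled symbols siIRF4 libraries, circles KMS-12-BM and squares KMS-12-PE, with 3 libraries each. All 3 measures are lower in KMS-12-PE siIRF4 than in KMS-12-PE CTRL, and replicate 1 of KMS-12-BM siIRF4 stands at 1.11% in the first panel.

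The targeted transcript was lower in siIRF4 libraries of both lines, and less so in KMS-12-BM. IRF4 had 357, 361 and 364 TPM in KMS-12-BM CTRL and 205, 221 and 241 TPM in KMS-12-BM siIRF4. It had 338, 326 and 318 TPM in KMS-12-PE CTRL, against 154, 152 and 160 TPM in KMS-12-PE siIRF4. No siIRF4 library overlapped with CTRL of its line, and all KMS-12-PE siIRF4 libraries lay below all KMS-12-BM siIRF4 libraries. The change of the mean from CTRL was -38.4% and -52.6%, the effects were -0.70 and -1.07, and the difference was 0.37 ± 0.094 (adjusted p = 0.0067). The lesser loss of IRF4 in KMS-12-BM goes with every result below and cannot be told apart from a difference between the lines.

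The effect of siIRF4 differed between the lines in 3476 of 15113 genes (23.0%), of which 2402 had a positive difference (15.9% of genes tested) and 1074 a negative difference (7.11%). The share of positive calls was 69.1%, and it depended on the scaling: median-of-ratios scaling gave 1739 positive and 1582 negative calls (52.4% positive) and voom on recovered reads 1818 and 1432 (55.9%). The median difference over all genes was 0.063 on the TPM scale and 0.013 with median-of-ratios scaling. Differences were mostly small, with a median size of 0.38 among calls, and 251 calls (1.66% of genes tested) reached a size of 1, 174 of them positive and 77 negative.

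Most called genes had the larger effect in KMS-12-PE. This held for 2594 of the 3476, of which 1738 were lower and 856 higher in KMS-12-PE siIRF4 libraries. The effect was larger in KMS-12-BM for 729, of which 558 were higher and 171 lower in siIRF4. In 153 (4.40%) the effects had opposite signs with each at least 0.25 in size. Among the 251 largest differences, 174 were larger in KMS-12-PE, 17 larger in KMS-12-BM and 60 of opposite sign. Across all genes tested the effects of both lines correlated at r = 0.28 (Spearman's rho 0.30), and at r = 0.37 over the 11581 genes expressed in both lines, where their SD was 0.23 in KMS-12-BM, against 0.33 in KMS-12-PE. These are correlations across genes, which are not independent replicates.

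**Figure D2:**
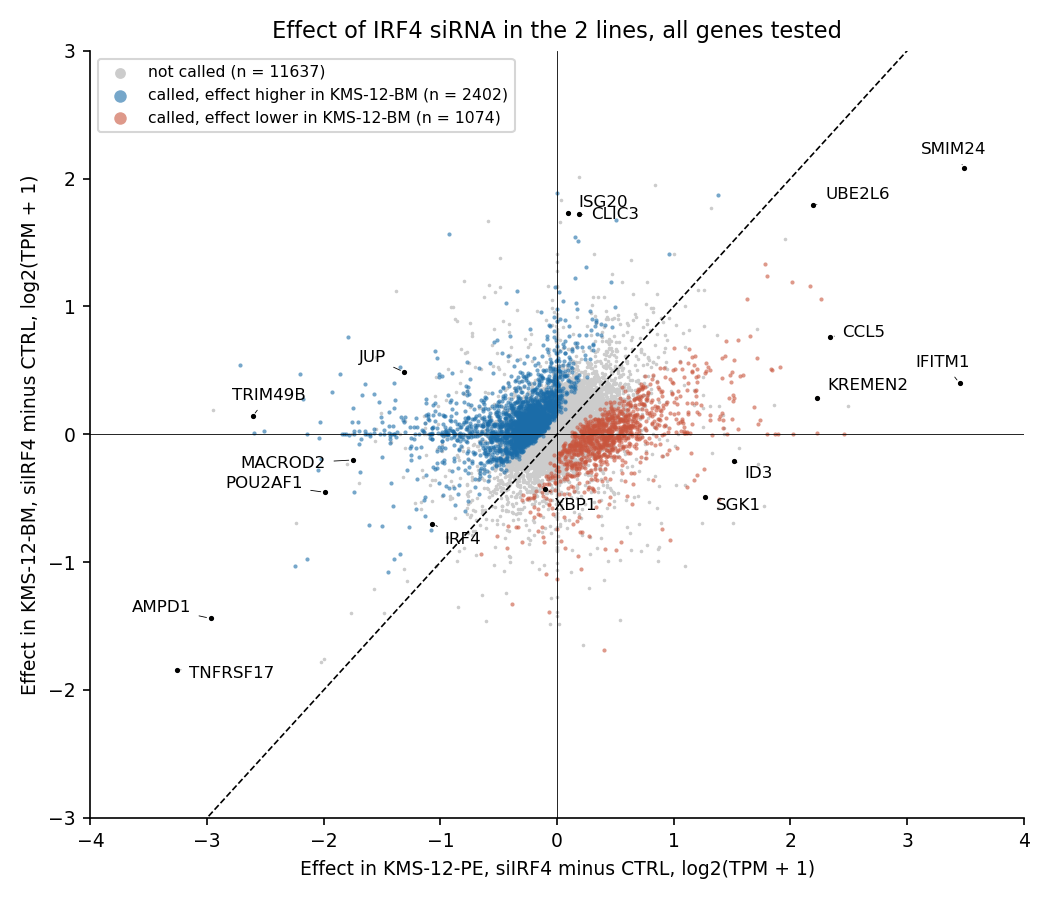
Effect of siIRF4 in KMS-12-PE (horizontal axis) and KMS-12-BM (vertical axis), as log2(TPM + 1) of siIRF4 minus CTRL, with 1 point for each of 15113 genes. Blue and red points are the 2402 genes called with a positive and the 1074 called with a negative difference, grey points were not called, and the dashed line marks equal effects. The cloud is wider along the KMS-12-PE axis, and IFITM1 lies far to the right of the line, and TRIM49B and TNFRSF17 to its left.

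Of 23 plasma cell genes tested, 16 differed between the lines (69.6%, against 23.0% of all genes), 11 with a positive and 5 with a negative difference. Their median effect was -0.41 in KMS-12-BM, against -0.71 in KMS-12-PE, against 0.037 and -0.022 over all genes. Of the 11 with a positive difference, 8 were lower in siIRF4 of both lines and more so in KMS-12-PE. XBP1, DERL3 and FKBP11, genes of secretion, went the other way and were lower mainly in KMS-12-BM.

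TNFRSF17 encodes BCMA, the receptor for BAFF and APRIL that long-lived plasma cells need. It had 308, 294 and 323 TPM in KMS-12-BM CTRL, 81.7, 80.0 and 95.7 TPM in KMS-12-BM siIRF4, 190, 183 and 208 TPM in KMS-12-PE CTRL, against 18.2, 19.5 and 20.3 TPM in KMS-12-PE siIRF4. The groups did not overlap in either line, the effects were -1.84 and -3.26, and the difference was 1.42 ± 0.092 (adjusted p = 6.4e-10). POU2AF1, the coactivator of octamer-binding factors in B cells and plasma cells, had 179, 174 and 185 TPM in KMS-12-BM CTRL, 139, 124 and 129 TPM in KMS-12-BM siIRF4, 26.7, 26.0 and 23.8 TPM in KMS-12-PE CTRL, against 5.98, 5.80 and 5.23 TPM in KMS-12-PE siIRF4. Its groups did not overlap in either line, and the difference was 1.54 ± 0.086 (adjusted p = 9.5e-11). AMPD1, an AMP deaminase, had effects of -1.44 and -2.97 and a difference of 1.53 ± 0.13. KLF2, a factor of lymphocyte quiescence and homing, had 49.5, 42.5 and 43.9 TPM in KMS-12-BM CTRL, 22.5, 21.3 and 21.2 TPM in KMS-12-BM siIRF4, 44.6, 49.9 and 43.3 TPM in KMS-12-PE CTRL, against 6.66, 9.62 and 10.8 TPM in KMS-12-PE siIRF4. Starting from a similar level in both lines, it was lowest in KMS-12-PE siIRF4, with a difference of 1.22 ± 0.21 (adjusted p = 0.00035).

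PRDM1, which encodes the plasma cell repressor BLIMP1, had effects of -0.47 and -0.85 and a difference of 0.38 ± 0.078. ELL2, an elongation factor for immunoglobulin secretion, differed by 0.49 ± 0.077, its partner EAF2 by 0.74 ± 0.12, the factor CREB3L2 by 0.46 ± 0.093 and the caveolar gene CAV1 by 0.37 ± 0.11, all with adjusted p between 9.9e-05 and 0.0149. SLAMF7, the surface target of elotuzumab, had 154, 161 and 162 TPM in KMS-12-PE CTRL, against 74.8, 69.1 and 73.6 TPM in KMS-12-PE siIRF4, but at most 1.95 TPM in KMS-12-BM CTRL. Its difference was 1.40 ± 0.27. In KMS-12-BM siIRF4 it had 4.53 TPM in replicate 1 and 1.54 and 1.63 TPM in the others. The MM1-specific signal was also highest in replicate 1, and its part was not tested.

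XBP1, the transcription factor that expands the secretory apparatus, had 344, 356 and 351 TPM in KMS-12-BM CTRL and 254, 259 and 267 TPM in KMS-12-BM siIRF4. In KMS-12-PE it had 383, 404 and 398 TPM in CTRL and 366, 366 and 373 TPM in siIRF4. The groups overlapped in neither line, but the effects were -0.43 and -0.10, a difference of -0.33 ± 0.036 (adjusted p = 1.5e-06). DERL3, a gene of endoplasmic reticulum (ER) associated degradation, had effects of -0.76 and -0.16 and a difference of -0.60 ± 0.093. FKBP11, an ER peptidyl-prolyl isomerase of secretory cells, had effects of -0.41 and -0.12 and a difference of -0.29 ± 0.054. The Ikaros genes IKZF1 and IKZF3 had negative differences of -0.25 and -0.32 (adjusted p = 0.0272 and 0.0407). Their calls were lost in several settings, IKZF1 on leaving out KMS-12-BM CTRL replicate 1 (-0.24), KMS-12-BM siIRF4 replicate 2 or 3 (-0.22 and -0.24), KMS-12-PE CTRL replicate 3 (-0.20) or KMS-12-PE siIRF4 replicate 1 or 3 (-0.23 and -0.25). IKZF3 was lost with the KMS-12 libraries fitted alone (adjusted p = 0.0904) and without KMS-12-BM CTRL replicate 3 (-0.24), KMS-12-BM siIRF4 replicate 2 or 3 (-0.24 and -0.34), KMS-12-PE CTRL replicate 2 or 3 (-0.30 and -0.27) or KMS-12-PE siIRF4 replicate 2 or 3 (-0.31 and -0.32). The surface genes SDC1 (0.14 ± 0.21) and CD38 (-0.46 ± 0.17) and the ER chaperone MZB1 (-0.08 ± 0.049) were not called, though CD38 was with median-of-ratios scaling (-0.52), voom (-0.58) and a replicate block (-0.46), and without KMS-12-BM siIRF4 replicate 3 (-0.61).

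**Figure D3:**
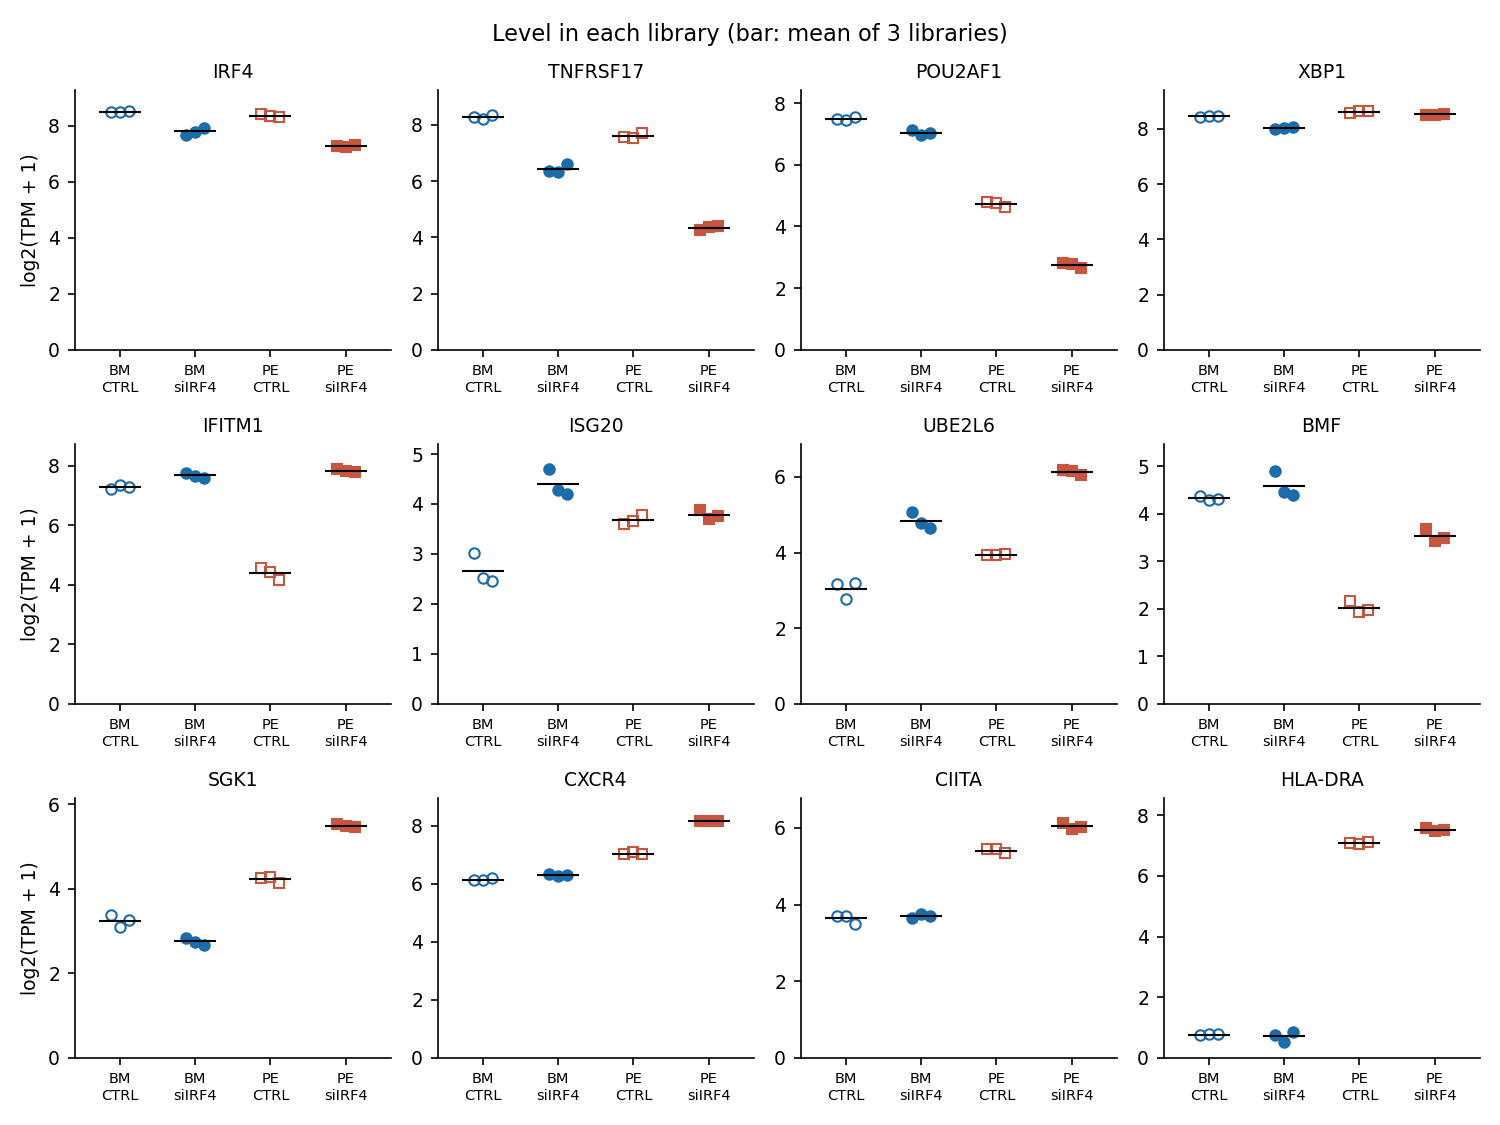
Level of 12 genes in each library as log2(TPM + 1). Circles are KMS-12-BM and squares KMS-12-PE libraries, open symbols CTRL and filled symbols siIRF4, and the bar is the mean of 3 libraries. IRF4, TNFRSF17 and POU2AF1 are lower in siIRF4 of both lines, IFITM1 stands near 20 TPM in KMS-12-PE CTRL only, and HLA-DRA is under 1 TPM throughout KMS-12-BM.

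The interferon-stimulated genes did not move as a block. Of 43 tested, 10 had a positive and 16 a negative difference (60.5% called, against 23.0% of all genes). All 3 siIRF4 libraries lay above all CTRL libraries for 17 members in KMS-12-BM, against 27 in KMS-12-PE (22.0% and 19.7% of all genes), and below for 0 and 6 (12.3% and 27.7% of all genes). The median difference of -0.048 turned to 0.035 with a pseudocount of 0.1 and to 0.023 with voom, which called 8 positive and 12 negative, and 9 positive and 6 negative members. In KMS-12-BM, 21 members had means under 1 TPM in both conditions.

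The interferon-stimulated response element (ISRE), to which interferon regulatory factors bind, was searched as GAAA, any 2 bases, GAAA on both strands in the 300 bases around each start (250 before, 50 after), with the composite ETS-IRF element (EICE) as GGAA, any 2 bases, GAAA, which differs from it in 1 letter so that no 10 bases match both on the same strand. Promoters came from RefSeq (GRCh38.p14), where 11080 of the 15113 genes tested were matched. An ISRE was in 22 of 35 interferon-stimulated promoters (62.9%), against 3.01% of all tested. It was in 8 of 12 members with a negative difference (66.7%) and in 7 of 9 with a positive difference (77.8%). The 140 bases before the start are shown for IFITM1, BST2 and ISG20, members that differed in opposite directions, with the ISRE in capitals. The stretches are chr11:313900-314039 (+ strand), chr19:17405631-17405770 (- strand) and chr15:88638876-88639015 (+ strand), and in BST2 the capitals hold 2 overlapping matches.
IFITM1: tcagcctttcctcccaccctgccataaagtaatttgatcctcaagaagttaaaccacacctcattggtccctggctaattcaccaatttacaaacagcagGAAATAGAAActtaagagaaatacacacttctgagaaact
BST2: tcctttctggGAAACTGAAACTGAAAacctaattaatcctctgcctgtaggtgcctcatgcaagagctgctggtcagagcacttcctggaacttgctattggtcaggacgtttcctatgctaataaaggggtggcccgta
ISG20: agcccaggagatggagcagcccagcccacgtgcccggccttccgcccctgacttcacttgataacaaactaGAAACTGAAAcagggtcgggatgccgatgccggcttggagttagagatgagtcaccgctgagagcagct
The match begins 40 bases before the start in IFITM1, 130 and 124 in BST2 and 69 in ISG20. These are matches of letters and not measured sites.

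IFITM1, a membrane protein that restricts virus entry, had the most negative difference of all genes named here. It had 148, 161 and 154 TPM in KMS-12-BM CTRL, 217, 203 and 192 TPM in KMS-12-BM siIRF4, 22.4, 20.7 and 16.8 TPM in KMS-12-PE CTRL, against 235, 227 and 219 TPM in KMS-12-PE siIRF4. The low group was KMS-12-PE CTRL, and after siIRF4 both lines stood at a like level. The effects were 0.40 and 3.45, and the difference was -3.05 ± 0.25 (adjusted p = 1e-07). Its neighbour and paralog IFITM2, whose reads can be shared with IFITM1 and IFITM3, had effects of 0.15 and 1.40 and a difference of -1.25 ± 0.26 (adjusted p = 0.0017). IFITM3 went the other way, with a difference of 0.92 (adjusted p = 0.0294). That call was lost with a pseudocount of 0.1 (1.02, adjusted p = 0.258) and on leaving out single libraries.

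BST2, the tethering factor tetherin, had 748, 736 and 734 TPM in KMS-12-BM CTRL, 692, 735 and 715 TPM in KMS-12-BM siIRF4, 337, 343 and 335 TPM in KMS-12-PE CTRL, against 432, 436 and 421 TPM in KMS-12-PE siIRF4. The groups overlapped in KMS-12-BM and not in KMS-12-PE, and the difference was -0.40 ± 0.04 (adjusted p = 3.8e-07). ISG15, a ubiquitin-like modifier, was higher in siIRF4 of both lines (effects 0.45 and 1.19), with a difference of -0.73 ± 0.15. SP100, a component of nuclear bodies, had 7.11, 6.85 and 6.54 TPM in KMS-12-BM CTRL, 6.53, 6.80 and 6.82 TPM in KMS-12-BM siIRF4, 17.2, 17.0 and 17.7 TPM in KMS-12-PE CTRL, against 30.9, 28.1 and 28.9 TPM in KMS-12-PE siIRF4. Its groups overlapped in KMS-12-BM alone, and the difference was -0.75 ± 0.063 (adjusted p = 3.1e-08).

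Negative differences were also called for DTX3L, XAF1, USP18, IFIT3, MX1 and DHX58, which had means under 1 TPM in KMS-12-BM. They ranged from -0.56 for DHX58 to -1.63 for XAF1. With voom 0 of these 6 was called (differences from -0.87 to -1.88, adjusted p from 0.0776 to 0.405). XAF1, a factor that promotes apoptosis, had 1.24, 0.910 and 0.845 TPM in KMS-12-PE CTRL, against 5.64, 5.35 and 6.03 TPM in KMS-12-PE siIRF4, and 0 in 3 of the 6 KMS-12-BM libraries. The ISG15-conjugating enzyme UBE2L6 was among the members with the largest effects in both lines (1.79 and 2.19). It had 8.06, 5.89 and 8.09 TPM in KMS-12-BM CTRL, 32.8, 26.5 and 24.1 TPM in KMS-12-BM siIRF4, 14.3, 14.2 and 14.5 TPM in KMS-12-PE CTRL, against 71.6, 69.8 and 65.9 TPM in KMS-12-PE siIRF4. Its difference of -0.40 ± 0.13 was barely called (adjusted p = 0.0271). The call was lost in the KMS-12 libraries alone, with a pseudocount of 0.1 and with voom (adjusted p = 0.101, 0.076 and 0.0764). It was lost as well on leaving out KMS-12-BM CTRL replicate 1 or 3 (both -0.34), KMS-12-BM siIRF4 replicate 2 or 3 (-0.38 and -0.31), KMS-12-PE CTRL replicate 2 (-0.40) or KMS-12-PE siIRF4 replicate 1 or 2 (-0.38 and -0.40). IFI35 (0.04 ± 0.12) and IFIH1 (-0.05 ± 0.10) were not called.

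Of the 10 positive differences, those of ISG20, SAMD9, EIF2AK2 and PARP12 went with effects of 0.64 to 1.87 in KMS-12-BM. The other 6 were of genes with an effect below 0 in KMS-12-PE. ISG20, an exonuclease, had 7.07, 4.74 and 4.53 TPM in KMS-12-BM CTRL, 24.9, 18.5 and 17.5 TPM in KMS-12-BM siIRF4, 11.2, 11.7 and 12.7 TPM in KMS-12-PE CTRL, against 13.7, 12 and 12.6 TPM in KMS-12-PE siIRF4. The groups overlapped in KMS-12-PE and not in KMS-12-BM, and the difference was 1.64 ± 0.17 (adjusted p = 1.2e-06). EIF2AK2, the double-stranded RNA kinase PKR, had 3.53, 2.89 and 2.95 TPM in KMS-12-BM CTRL and 5.38, 5.69 and 5.14 TPM in KMS-12-BM siIRF4, and 32.9 to 39.5 TPM in all KMS-12-PE libraries. Its difference was 0.65 ± 0.091 (adjusted p = 2.9e-05). SAMD9, a virus restriction factor, likewise differed by 0.83 ± 0.11 and the mono-ADP-ribosyltransferase PARP12 by 0.49 ± 0.11, the latter by 0.77 with a pseudocount of 0.1 or voom. SAMD9L, the paralog of SAMD9, went the other way from it in KMS-12-PE, with 19.9, 20.9 and 20.9 TPM in CTRL and 12.5, 9.25 and 11 TPM in siIRF4, and differed by 1.03 ± 0.12 (adjusted p = 4.2e-06).

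Among the interferon regulatory factors other than IRF4, 3 of 7 tested had a negative difference (42.9%, against 7.11% of all genes). IRF2, which binds the same element, had effects of -0.06 and 0.33 (difference -0.39 ± 0.069) and IRF7, the amplifier of type I interferon, 0.28 and 0.69 (-0.40 ± 0.11). IRF8 (-0.70 ± 0.12) had at most 0.174 TPM in KMS-12-BM and was not called with a pseudocount of 0.1 (-0.72) or voom (-0.35). IRF1, the activator of antigen presentation genes, had 5.74, 6.17 and 6.85 TPM in KMS-12-BM CTRL, 14.5, 12.1 and 10.9 TPM in KMS-12-BM siIRF4, 10.1, 11.7 and 10.6 TPM in KMS-12-PE CTRL, against 20.1, 18.3 and 18.8 TPM in KMS-12-PE siIRF4. It was higher in siIRF4 of both lines, by effects of 0.89 and 0.77, and the difference of 0.12 ± 0.10 was not called (adjusted p = 0.434).

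The MHC class II genes, which present peptides to CD4 T cells, were higher in siIRF4 of KMS-12-PE and hardly expressed in KMS-12-BM. In KMS-12-PE all siIRF4 libraries lay above all CTRL libraries for 12 of 12 members (19.7% of all genes). A negative difference was called for 11 of 12 (91.7%, against 7.11% of all genes), with a median of -0.50. In KMS-12-BM 9 of the 12 were under 1 TPM, so their effect there is near 0 on this scale. A pseudocount of 0.1 and voom each called 5 of 12.

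The Y box (CTGATTGG, both strands), to which NF-Y binds in MHC class II promoters, was added after the values had been seen. It was in 4 of 11 MHC class II promoters (36.4%) and in 5.80% of all tested, whereas 0 of 11 held an ISRE or an EICE. HLA-DMA and HLA-DQB1 are shown as examples with the Y box in capitals, 140 bases before the start, at chr6:32953098-32953237 and chr6:32666658-32666797 (both - strand, GRCh38.p14, RefSeq).
HLA-DMA: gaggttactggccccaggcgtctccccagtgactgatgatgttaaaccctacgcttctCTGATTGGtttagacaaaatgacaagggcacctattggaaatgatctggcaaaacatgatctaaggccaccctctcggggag
HLA-DQB1: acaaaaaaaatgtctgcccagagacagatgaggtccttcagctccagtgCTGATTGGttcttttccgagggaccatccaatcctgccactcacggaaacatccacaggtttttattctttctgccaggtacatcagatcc
The matches begin 82 and 91 bases before the start.

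HLA-DRA, the alpha chain of HLA-DR, had 135, 132 and 139 TPM in KMS-12-PE CTRL, against 189, 176 and 181 TPM in KMS-12-PE siIRF4, and between 0.450 and 0.811 TPM in the 6 KMS-12-BM libraries. Its difference was -0.47 ± 0.083 (adjusted p = 0.00034). HLA-DQB1 had 64.9, 65.7 and 62.7 TPM in KMS-12-PE CTRL, against 102, 91.6 and 96.7 TPM in KMS-12-PE siIRF4, and differed by -0.62 ± 0.12. HLA-DRB1, whose reads can be shared with HLA-DRB5, differed by -0.60 ± 0.12, and the peptide-exchange chain HLA-DMA by -0.59 ± 0.10. With voom the adjusted p of HLA-DQB1, HLA-DRB1 and HLA-DMA was 0.0527, 0.536 and 0.079, and with a pseudocount of 0.1 that of HLA-DQB1 and HLA-DRB1 was 0.136 and 0.103. HLA-DPB1 differed by -0.54 ± 0.092, and by -1.53 with voom. HLA-DOB, a chain of the HLA-DM modulator HLA-DO, had a difference of -0.29 ± 0.13 (adjusted p = 0.107) and was called with voom only (-0.46).

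CIITA and CD74 can be compared in both lines, since both express them. CIITA, the coactivator that MHC class II genes require, had 12.1, 12.1 and 10.2 TPM in KMS-12-BM CTRL, 11.6, 12.5 and 12.1 TPM in KMS-12-BM siIRF4, 42.5, 42.3 and 39.4 TPM in KMS-12-PE CTRL, against 69.2, 62.2 and 64.1 TPM in KMS-12-PE siIRF4. Its groups overlapped in KMS-12-BM and not in KMS-12-PE, and the difference was -0.57 ± 0.11 (adjusted p = 0.0008). CD74, the invariant chain that occupies the peptide groove, had 535, 543 and 535 TPM in KMS-12-BM CTRL, 586, 552 and 552 TPM in KMS-12-BM siIRF4, 1090, 1190 and 1020 TPM in KMS-12-PE CTRL, against 1410, 1350 and 1320 TPM in KMS-12-PE siIRF4. The difference of -0.24 ± 0.071 (adjusted p = 0.0179) was not called without KMS-12-PE CTRL replicate 3 (-0.18, adjusted p = 0.0548). CIITA, CD74, HLA-DRB1, HLA-DQB1 and HLA-DOB were chosen after their values had been seen.

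Of 15 MHC class I and antigen processing genes, 5 had a negative difference (33.3%, against 7.11% of all genes), each with a higher effect in KMS-12-PE. Leaving out replicate 3 of KMS-12-BM CTRL, of KMS-12-BM siIRF4 or of KMS-12-PE siIRF4 left 3 of them, and voom called 8. PSMB8 and PSMB9, immunoproteasome subunits, differed by -0.58 ± 0.065 and -0.34 ± 0.087. PSMB8 had 11.8, 12.2 and 11.9 TPM in KMS-12-BM CTRL, 15.2, 15 and 14.1 TPM in KMS-12-BM siIRF4, 6.55, 6.77 and 6.24 TPM in KMS-12-PE CTRL, against 12.9, 12.7 and 12.4 TPM in KMS-12-PE siIRF4. ERAP1, which trims peptides in the ER, had effects of -0.10 and 0.26 and a difference of -0.36 ± 0.071.

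**Figure D4:**
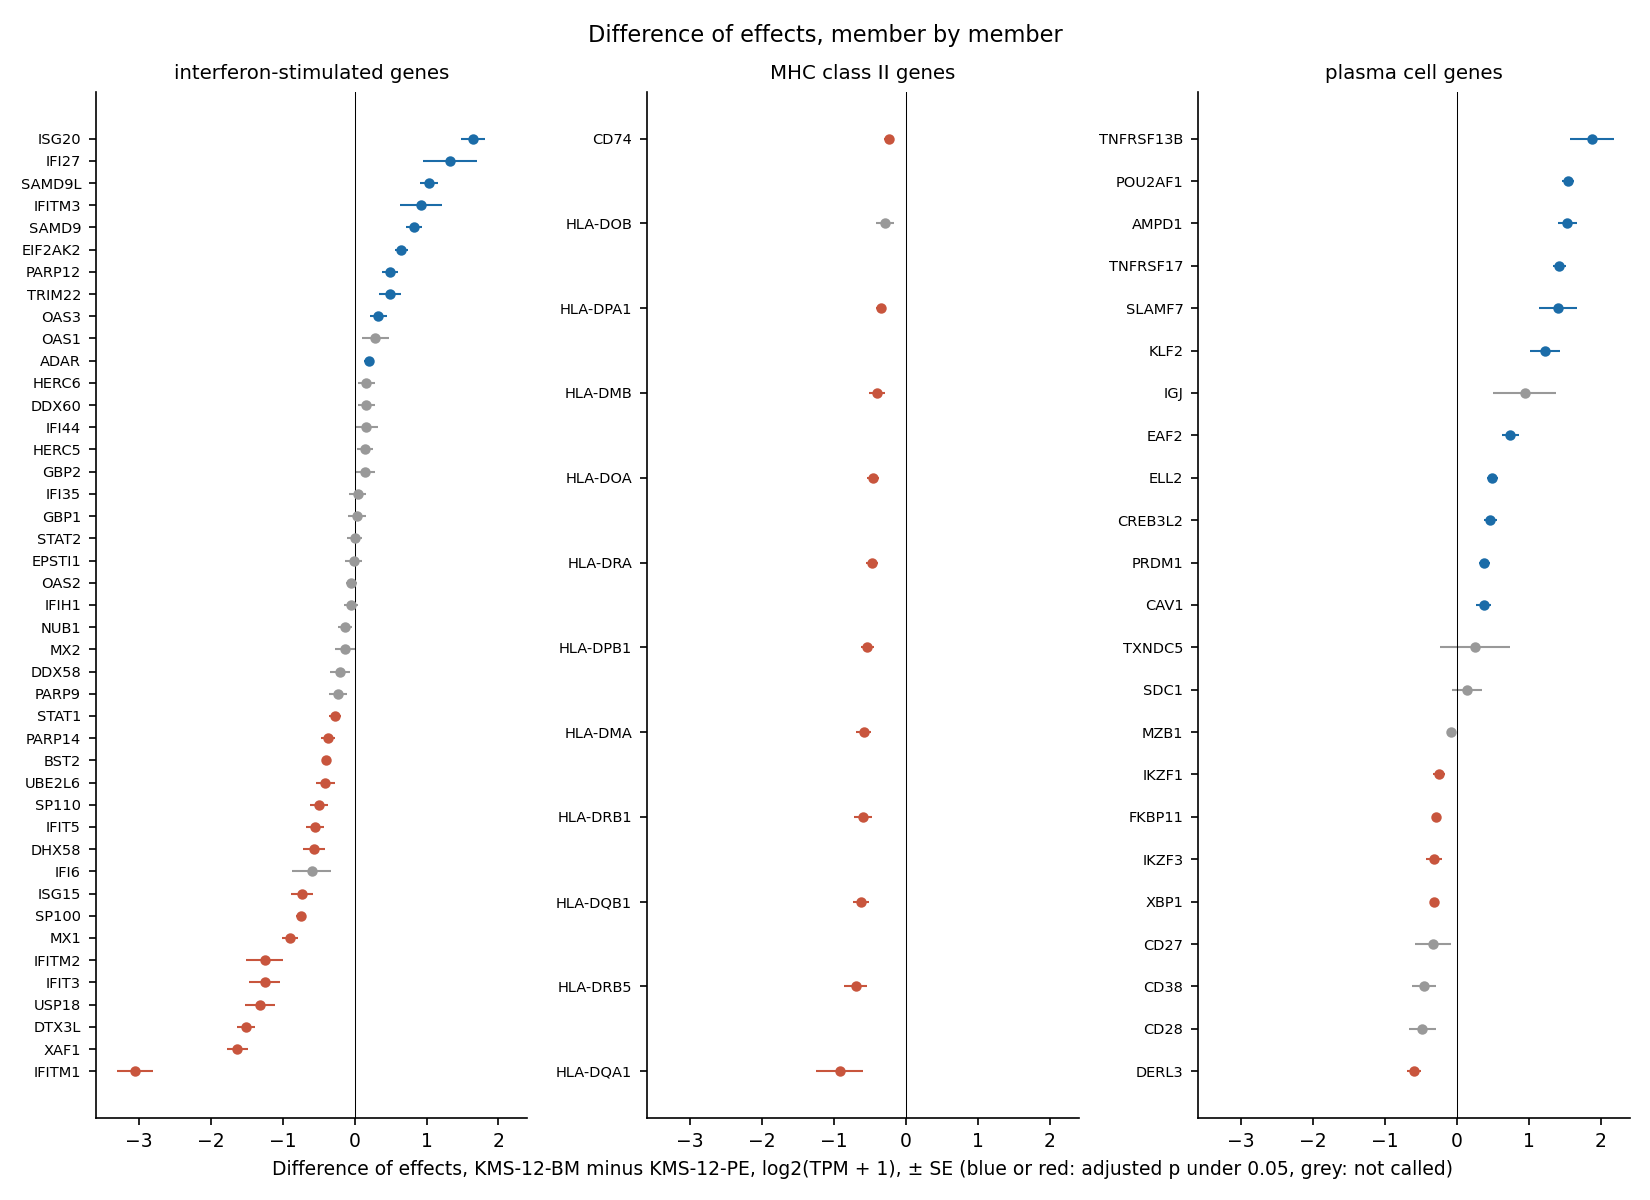
Difference of effects (KMS-12-BM minus KMS-12-PE, log2(TPM + 1), ± SE) for each tested interferon-stimulated, MHC class II and plasma cell gene. Blue points were called with a positive and red points with a negative difference, and grey points were not called. Interferon-stimulated genes spread from -3.05 (IFITM1) to 1.64 (ISG20), MHC class II genes all lie below 0, and plasma cell genes lie mostly above it.

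Targets of NF-kB and genes of the B cell program had mostly negative differences. Of 20 NF-kB targets tested, 2 were positive and 11 negative (65.0% called, against 23.0% of all genes). Their median difference was -0.43, with a median effect of -0.027 in KMS-12-BM, against 0.33 in KMS-12-PE. Among the 13 called members, 7 had an effect below 0 in KMS-12-BM and above 0 in KMS-12-PE. RELB, a subunit of the noncanonical pathway, had 84.3, 82.9 and 80.1 TPM in KMS-12-BM CTRL, 85.5, 84.1 and 79.3 TPM in KMS-12-BM siIRF4, 23.8, 23.0 and 22.0 TPM in KMS-12-PE CTRL, against 36.9, 37.8 and 37.0 TPM in KMS-12-PE siIRF4. The groups overlapped in KMS-12-BM and not in KMS-12-PE, and the difference was -0.67 ± 0.072 (adjusted p = 1.1e-06). The inhibitor NFKBIA, chosen after its values had been seen, had 166, 156 and 163 TPM in KMS-12-BM CTRL, 139, 136 and 135 TPM in KMS-12-BM siIRF4, 55.6, 60.0 and 54.3 TPM in KMS-12-PE CTRL, against 69.7, 70.5 and 72.3 TPM in KMS-12-PE siIRF4. It was lower in KMS-12-BM siIRF4 and higher in KMS-12-PE siIRF4 without overlap, a difference of -0.55 ± 0.099 (adjusted p = 0.0004). BIRC3, which restrains apoptosis and noncanonical signalling, differed by -0.77 ± 0.089, and the cytokine receptor chain IL2RG by -0.51 ± 0.051. The adhesion gene ICAM1 (-0.65 ± 0.087) and the dendritic and B cell marker CD83 (-0.57 ± 0.12) were also chosen after their values had been seen. The 2 positive members were CD40 and TNFAIP2, whose calls voom did not give (differences 1.52 and -0.014).

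Of 16 B cell genes, 2 were positive and 7 negative (56.2% called, against 23.0% of all genes). ID3, an inhibitor of E proteins, had 171, 171 and 177 TPM in KMS-12-BM CTRL, 161, 148 and 139 TPM in KMS-12-BM siIRF4, 18.7, 19.9 and 17.4 TPM in KMS-12-PE CTRL, against 54.7, 56.6 and 54.4 TPM in KMS-12-PE siIRF4. Levels were lower in KMS-12-BM siIRF4 and higher in KMS-12-PE siIRF4 without overlap, and the difference was -1.73 ± 0.095 (adjusted p = 8.6e-11). SPIB, an ETS partner of IRF4 in B cells, had effects of 0.60 and 1.71 and differed by -1.11 ± 0.15. The octamer-binding factor POU2F2 (OCT2) had effects of -0.31 and 0.55 and differed by -0.86 ± 0.093, and by -1.32 with a pseudocount of 0.1 and -1.45 with voom, being near 1 TPM in KMS-12-PE. LTB, a lymphotoxin chain chosen after its values had been seen, had 38.3, 38.7 and 38.2 TPM in KMS-12-BM CTRL, 97.5, 88.5 and 76.9 TPM in KMS-12-BM siIRF4, 3.75, 4.54 and 3.83 TPM in KMS-12-PE CTRL, against 21.1, 21.4 and 22.2 TPM in KMS-12-PE siIRF4. It was higher in siIRF4 of both lines and more so in KMS-12-PE, with a difference of -1.0 ± 0.14 (adjusted p = 1.7e-05).

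Of 19 pro-apoptotic genes tested, 5 were positive and 5 negative (52.6% called, against 23.0% of all genes), and the median difference of 0.14 and the mean of -0.045 had opposite signs. The negative ones were the BH3-only genes BMF and BCL2L11 and the death receptors FAS, TNFRSF10A and TNFRSF10B, and the positive ones included the caspase gene CASP8, the BH3-only gene BID, the pore-forming BAK1 and the apoptosome gene APAF1. BMF had 19.8, 18.7 and 19.0 TPM in KMS-12-BM CTRL, 29.0, 21.1 and 20 TPM in KMS-12-BM siIRF4, 3.45, 2.83 and 2.94 TPM in KMS-12-PE CTRL, against 11.8, 9.75 and 10.2 TPM in KMS-12-PE siIRF4. It was higher in siIRF4 of both lines, with effects of 0.26 and 1.51 and a difference of -1.25 ± 0.14 (adjusted p = 1.3e-06). BCL2L11 (BIM) had 23.3, 23.2 and 22.4 TPM in KMS-12-BM CTRL, 39.6, 35.1 and 36.4 TPM in KMS-12-BM siIRF4, 98.7, 103 and 100 TPM in KMS-12-PE CTRL, against 224, 218 and 221 TPM in KMS-12-PE siIRF4. Here too the groups did not overlap in either line, and the difference was -0.46 ± 0.064 (adjusted p = 2.3e-05).

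FAS, the receptor of FAS ligand, had effects of 0.07 and 0.71 (difference -0.64 ± 0.068), and the TRAIL receptors TNFRSF10A and TNFRSF10B differed by -0.48 ± 0.068 and -0.32 ± 0.084. The calls of BID (0.27), CASP8 (0.19) and BAK1 (0.21) were lost with median-of-ratios scaling (0.21, 0.13 and 0.15) and with voom. Median-of-ratios scaling left 2 positive and 5 negative pro-apoptotic genes. CASP8, BAK1 and APAF1 (0.37) were also lost on leaving out single libraries: CASP8 without KMS-12-BM CTRL replicate 1 (0.15), KMS-12-BM siIRF4 replicate 1, KMS-12-PE CTRL replicate 1 or KMS-12-PE siIRF4 replicate 1 (each 0.17). BAK1 was lost without KMS-12-BM CTRL replicate 3 (0.20), KMS-12-PE CTRL replicate 1 or 2 (0.19 and 0.17) or KMS-12-PE siIRF4 replicate 3 (0.19). APAF1 was lost without KMS-12-BM CTRL replicate 2 (0.33), KMS-12-BM siIRF4 replicate 1 or 2 (0.36 and 0.34), KMS-12-PE CTRL replicate 1 or 2 (0.31 and 0.36) or KMS-12-PE siIRF4 replicate 2 (0.31). Of 10 anti-apoptotic genes, 1 was positive and 1 negative, a share near the 23.0% of all genes called. BCL2L2 (BCL-W) was positive, with effects of 0.02 and -0.53 and a difference of 0.56 ± 0.11, and BIRC3 negative. The differences of BCL2 (-0.03 ± 0.076), MCL1 (-0.04 ± 0.078) and BCL2L1 (0.14 ± 0.063) were not called, the last being called without KMS-12-PE siIRF4 replicate 1 (0.20).

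Of 21 p53 target genes, 8 were positive and 3 negative (52.4% called, against 23.0% of all genes). The stress genes RRM2B, a ribonucleotide reductase subunit, and SESN1, an inhibitor of mTORC1, were higher mainly in KMS-12-BM siIRF4. RRM2B had 19.9, 21.7 and 22.9 TPM in KMS-12-BM CTRL, 32.3, 28.6 and 30.0 TPM in KMS-12-BM siIRF4, 21.0, 21.2 and 21.3 TPM in KMS-12-PE CTRL, against 18.2, 16.5 and 16.5 TPM in KMS-12-PE siIRF4. The lines started at the same level and moved apart without overlap, to a difference of 0.77 ± 0.12 (adjusted p = 6.5e-05). SESN1 had effects of 0.68 and 0.17 and differed by 0.51 ± 0.069. TP53INP1 went the other way, with effects of -0.64 and 0.35 and a difference of -0.99 ± 0.14.

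Of 43 DNA replication and G1/S genes, 2 were called (4.65%, against 23.0% of all genes), and of 42 mitosis genes 6 were positive and 3 negative (21.4%, near the share of all genes). The former count was 5 in the KMS-12 libraries alone, 6 with voom, 4 without KMS-12-PE CTRL replicate 1 and 1 without KMS-12-BM CTRL replicate 1 or KMS-12-PE siIRF4 replicate 2 or 3. The latter was 5 in all without KMS-12-BM CTRL replicate 2 and 4 without KMS-12-BM siIRF4 replicate 1 or KMS-12-PE siIRF4 replicate 2. MKI67, the proliferation antigen, had 103, 106 and 99.3 TPM in KMS-12-BM CTRL, 115, 110 and 107 TPM in KMS-12-BM siIRF4, 91.0, 86.4 and 79.9 TPM in KMS-12-PE CTRL, against 67.6, 59.6 and 67.2 TPM in KMS-12-PE siIRF4. It was higher in KMS-12-BM siIRF4 and lower in KMS-12-PE siIRF4 without overlap, a difference of 0.50 ± 0.094 (adjusted p = 0.00063). CKS2, a cofactor of cyclin-dependent kinases, differed by -0.25 ± 0.056.

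Of 27 genes linked to myeloma or to IRF4, 12 were positive and 2 negative (51.9% called, against 23.0% of all genes). Without genes open to admixture, 10 were positive and 2 negative. RB1, the retinoblastoma gene, had 7.53, 6.80 and 6.20 TPM in KMS-12-BM CTRL, 15.9, 12.4 and 11.6 TPM in KMS-12-BM siIRF4, 32.3, 33.2 and 30.4 TPM in KMS-12-PE CTRL, against 31.6, 29.3 and 30.7 TPM in KMS-12-PE siIRF4. It was higher in KMS-12-BM siIRF4 without overlap, while the KMS-12-PE groups overlapped, and the difference was 0.92 ± 0.12 (adjusted p = 9.5e-06). The difference was 0.94 ± 0.12 for the interleukin 10 receptor gene IL10RA and 0.52 ± 0.096 for IL6ST, the signalling chain of the interleukin 6 receptor. The cohesin gene STAG2 (0.43 ± 0.076), the coactivator SUB1 (0.44 ± 0.063) and the G1 kinase CDK6 (0.36 ± 0.10) were also positive. DEPTOR, an mTOR inhibitor that myeloma cells often express highly, had effects of -0.25 and 0.20 and differed by -0.45 ± 0.074. CCND1, the translocation target, was not called (0.08 ± 0.43, adjusted p = 0.927).

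MYC, a growth regulator and known target of IRF4 in myeloma, had 1180, 1130 and 1120 TPM in KMS-12-BM CTRL, 834, 810 and 824 TPM in KMS-12-BM siIRF4, 1200, 1230 and 1070 TPM in KMS-12-PE CTRL, against 962, 958 and 941 TPM in KMS-12-PE siIRF4. It was lower in siIRF4 of both lines without overlap, by effects of -0.47 and -0.29. The difference of -0.18 ± 0.062 was called (adjusted p = 0.0369), but not with no filter, a prior without trend or a replicate block (adjusted p = 0.0543, 0.0593 and 0.0656). Nor was it called without KMS-12-BM CTRL replicate 1 or 2 (-0.16 and -0.19), KMS-12-BM siIRF4 replicate 2 or 3 (-0.17 and -0.19), KMS-12-PE CTRL replicate 3 (-0.13) or KMS-12-PE siIRF4 replicate 1, 2 or 3 (-0.18, -0.18 and -0.19).

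Over 30 genes of the unfolded protein response and of ER chaperones, the median effects were -0.24 in KMS-12-BM, against -0.26 in KMS-12-PE, and siIRF4 lay below CTRL without overlap for 21 and 25 of them (12.3% and 27.7% of all genes). Of the 30, 10 were positive and 3 negative (43.3% called, against 23.0% of all genes). Median-of-ratios scaling called 4 and 6 and turned the median difference from 0.0066 to -0.054. The median was also below 0 with voom (-0.012) and without KMS-12-BM CTRL replicate 1 (-0.00043) or KMS-12-PE CTRL replicate 2 (-0.0091). SEL1L, the adaptor of ER-associated degradation, had 57.7, 57.3 and 55.7 TPM in KMS-12-BM CTRL, 49.9, 48.9 and 51.6 TPM in KMS-12-BM siIRF4, 121, 121 and 117 TPM in KMS-12-PE CTRL, against 53.4, 49.2 and 54.2 TPM in KMS-12-PE siIRF4. After siIRF4 both lines stood at a like level, and the difference was 1.0 ± 0.074 (adjusted p = 5.4e-09). The disulfide isomerase PDIA6 differed by 0.29 ± 0.048 and the cochaperone DNAJC3 by 0.39 ± 0.075. On the negative side, besides XBP1, was SDF2L1, an ER chaperone cofactor, with effects of -0.72 and -0.42 and a difference of -0.30 ± 0.086.

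Of 17 heat shock genes, 9 were positive and 0 negative (52.9% called, against 23.0% of all genes), with 4 positive under median-of-ratios scaling. HSP90AA1, the inducible cytosolic HSP90, had 1070, 1110 and 1080 TPM in KMS-12-BM CTRL, 1060, 1090 and 1130 TPM in KMS-12-BM siIRF4, 1240, 1250 and 1300 TPM in KMS-12-PE CTRL, against 983, 979 and 962 TPM in KMS-12-PE siIRF4. The groups overlapped in KMS-12-BM and not in KMS-12-PE, and the difference was 0.39 ± 0.057 (adjusted p = 4.2e-05). Of 28 genes of the ATF4 and amino acid response, 10 were positive and 1 negative (39.3% called). PSAT1, of serine synthesis, had effects of -0.32 and -1.12 and differed by 0.80 ± 0.11, and DDIT4, an mTORC1 inhibitor, had 0.51 and 1.20 and differed by -0.68 ± 0.11. Of 36 glycolysis and hypoxia genes, 11 were positive and 3 negative (38.9% called). PDK1, which shuts pyruvate out of the mitochondrion, had 14, 13.3 and 12.9 TPM in KMS-12-BM CTRL, 15.6, 13.7 and 13.9 TPM in KMS-12-BM siIRF4, 59.4, 57.7 and 57.4 TPM in KMS-12-PE CTRL, against 23.7, 21.7 and 23.4 TPM in KMS-12-PE siIRF4. The groups overlapped in KMS-12-BM and not in KMS-12-PE, and the difference was 1.40 ± 0.076 (adjusted p = 8.6e-11). The collagen prolyl hydroxylase gene P4HA1 differed by 0.56 ± 0.096.

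The shares called in either direction among ribosomal protein genes (27.8%), ribosome biogenesis genes (25.7%) and proteasome genes (19.4%) were near the 23.0% of all genes. Within each list, however, the calls went mostly in 1 direction, whereas 15.9% of all genes were called positive and 7.11% negative. Of 36 cytosolic ribosomal protein genes, 0 were positive and 10 negative (27.8%, against 7.11% of all genes). The difference was above 0 for 1 of the 36, and the median effects were 0.0049 and 0.12. Voom called 17, and 6 were called without KMS-12-BM siIRF4 replicate 3. RPLP0, a stalk protein, had effects of -0.01 and 0.15 and differed by -0.17 ± 0.036. Of 35 ribosome biogenesis genes, 8 were positive and 1 negative (5 and 2 with median-of-ratios scaling), and the median effect was -0.15 in KMS-12-BM, against -0.24 in KMS-12-PE. The polyamine enzyme ODC1, a MYC target in that list, differed by 0.32 ± 0.051. Of 31 proteasome genes, 6 were positive and 0 negative, with 3 positive under voom and 2 under median-of-ratios scaling, which turned the median from 0.057 to -0.0042.

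**Figure D5:**
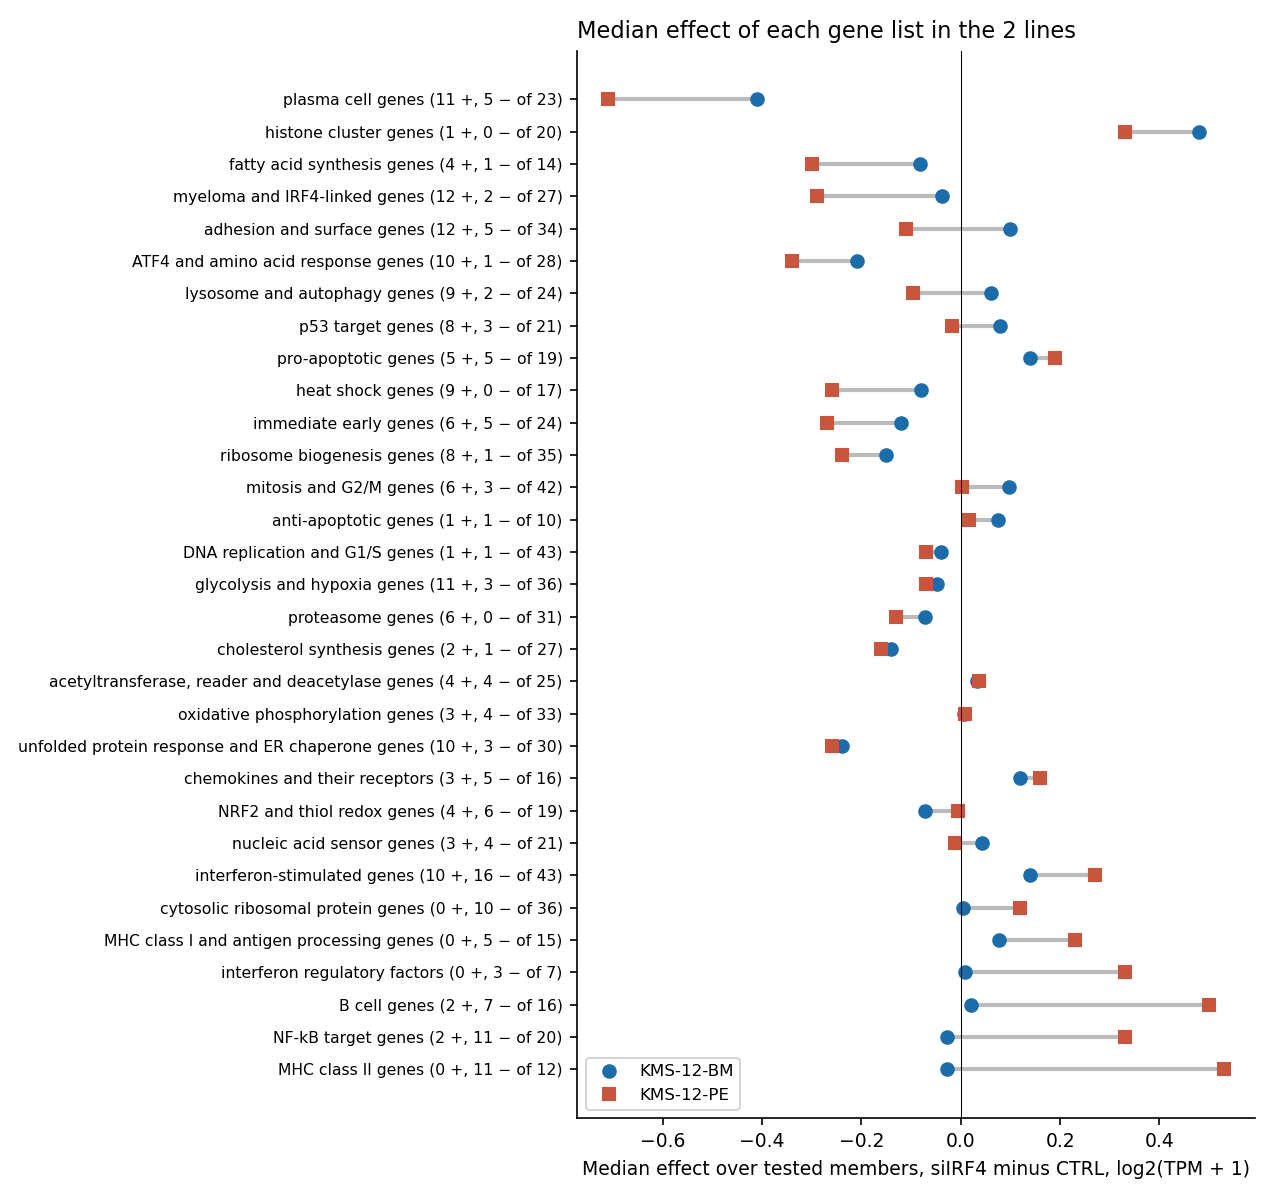
Median effect of siIRF4 over the tested members of each gene list, as log2(TPM + 1) of siIRF4 minus CTRL, with circles for KMS-12-BM and squares for KMS-12-PE joined by a line. Brackets give the members called positive and negative of those tested. MHC class II genes (medians -0.028 for KMS-12-BM circles, 0.53 for KMS-12-PE squares) and B cell genes lie at the negative end, and plasma cell genes at the positive end, where the KMS-12-PE median is lower.

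Genes of homing and adhesion included some of the clearest calls. CXCR4, which holds plasma cells in the marrow, had 68.4, 68.4 and 71.9 TPM in KMS-12-BM CTRL, 79.6, 76.0 and 77.6 TPM in KMS-12-BM siIRF4, 129, 135 and 130 TPM in KMS-12-PE CTRL, against 287, 285 and 289 TPM in KMS-12-PE siIRF4. It was higher in siIRF4 of both lines without overlap, and the difference was -0.96 ± 0.054 (adjusted p = 9.5e-11). The chemokine CCL5 had effects of 0.76 and 2.34 and differed by -1.57 ± 0.14. The receptor CCR2 had 8.76, 7.51 and 8.03 TPM in KMS-12-BM CTRL, 3.59, 3.48 and 3.77 TPM in KMS-12-BM siIRF4, 25, 25 and 25.7 TPM in KMS-12-PE CTRL, against 5.02, 4.86 and 4.93 TPM in KMS-12-PE siIRF4. Levels were lower in siIRF4 of both lines, to near the same level, with a difference of 1.17 ± 0.13 (adjusted p = 1.3e-06). CCR7, the lymph node homing receptor, was at or under 4.32 TPM throughout and differed by -1.90 ± 0.24, or by -2.98 with a pseudocount of 0.1 and -3.29 with voom.

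Of 34 adhesion and surface genes, 12 were positive and 5 negative, where 15.9% of all genes were called positive and 7.11% negative. Without genes at under 10% of their level in another line, 21 were tested, of which 6 were positive and 5 negative. The tetraspanin gene CD53 had effects of 0.12 and 1.31 (difference -1.20 ± 0.076), the integrin gene ITGAL 0.17 and 0.97 (-0.80 ± 0.074) and ICAM2 -0.37 and 0.39 (-0.75 ± 0.096). SELPLG, the selectin ligand, was lower mainly in KMS-12-PE siIRF4, with effects of -0.13 and -1.03 and a difference of 0.90 ± 0.061 (adjusted p = 1.1e-09). CD9 had a difference of 2.32 ± 0.085, but in KMS-12-PE, where its effect was larger, it stood at 0.695% of its level in another line.

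Among genes expressed in both lines, the most positive differences outside these lists were of genes lower in KMS-12-PE siIRF4. JUP, the junction protein plakoglobin, had 1.69, 1.95 and 1.60 TPM in KMS-12-BM CTRL, 2.85, 3.12 and 2.58 TPM in KMS-12-BM siIRF4, 12.1, 12.3 and 11 TPM in KMS-12-PE CTRL, against 4.70, 3.70 and 4.09 TPM in KMS-12-PE siIRF4. It moved in opposite directions without overlap, and the difference was 1.80 ± 0.11 (adjusted p = 2.6e-10). MACROD2, an ADP-ribose hydrolase, had 63.4, 64.5 and 64.0 TPM in KMS-12-PE CTRL, against 18.7, 18.1 and 18.2 TPM in KMS-12-PE siIRF4, but 5.31 to 7.53 TPM in KMS-12-BM, and differed by 1.55 ± 0.12. Glutamine synthetase, GLUL, had effects of 0.06 and -1.44 and differed by 1.5 ± 0.089. The protease inhibitor gene SERPINE2 differed by 1.65 ± 0.19, cystatin C (CST3) by 1.66 ± 0.12 and APP by 1.62 ± 0.15, the last 2 at 3.24% and 2.49% of their level in another line. CLIC3, a chloride channel family gene, was the exception, being higher in KMS-12-BM siIRF4 (effects 1.72 and 0.18, difference 1.54 ± 0.27).

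The most negative differences were of genes higher in KMS-12-PE siIRF4. SGK1, a kinase downstream of PI3K and glucocorticoids, had 9.33, 7.55 and 8.62 TPM in KMS-12-BM CTRL, 6.17, 5.72 and 5.34 TPM in KMS-12-BM siIRF4, 18.0, 18.5 and 16.5 TPM in KMS-12-PE CTRL, against 45.4, 43.4 and 43.2 TPM in KMS-12-PE siIRF4. It was lower in KMS-12-BM siIRF4 and higher in KMS-12-PE siIRF4 without overlap, a difference of -1.76 ± 0.095 (adjusted p = 8.6e-11). HDAC7, a class IIa deacetylase of lymphocytes, had 107, 99.6 and 106 TPM in KMS-12-BM CTRL, 107, 73.1 and 73.0 TPM in KMS-12-BM siIRF4, 47.6, 50.5 and 40.3 TPM in KMS-12-PE CTRL, against 108, 102 and 110 TPM in KMS-12-PE siIRF4. Replicate 1 of KMS-12-BM siIRF4 stood with CTRL, and the difference was -1.52 ± 0.16 (adjusted p = 1.8e-06). FAM43A differed by -2.23 ± 0.18, the Wnt coreceptor partner KREMEN2 by -1.95 ± 0.20, the olfactomedin gene OLFML2A by -1.64 ± 0.13, the Wnt ligand WNT10A by -1.53 ± 0.091 and the ciliary kinase NEK8 by -1.48 ± 0.10. SMIM24 was higher in siIRF4 of both lines (effects 2.08 and 3.49) and differed by -1.41 ± 0.20, or by -2.64 with a pseudocount of 0.1 and -2.78 with voom.

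Effects of opposite sign, each at least 0.5 in size, were described for 5 genes with at least 5 TPM in a KMS-12 group that were not open to admixture. C1orf106, a regulator of junctions and of cytohesins, had 5.78, 5.43 and 5.46 TPM in KMS-12-BM CTRL, 2.61, 2.72 and 3.49 TPM in KMS-12-BM siIRF4, 7.60, 7.73 and 6.85 TPM in KMS-12-PE CTRL, against 14.2, 14.9 and 14.7 TPM in KMS-12-PE siIRF4. Levels were lower in the one line and higher in the other without overlap, with effects of -0.74 and 0.90 and a difference of -1.64 ± 0.10 (adjusted p = 3.3e-10). C10orf10 (DEPP), a FOXO target, had effects of -0.55 and 0.64 (difference -1.19 ± 0.17), ARHGAP9, a GTPase-activating protein, 0.56 and -0.58 (1.13 ± 0.13) and RAB25, an epithelial Rab protein, 0.56 and -0.77 (1.34 ± 0.31, or 2.25 with a pseudocount of 0.1 and 2.34 with voom). TEX40, a sperm calcium channel subunit, had effects of -0.84 and 0.55 (-1.40 ± 0.28, or -2.10 and -2.21). Its KMS-12-PE groups overlapped, with all libraries at or under 1.73 TPM.

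Genes expressed in only 1 of the lines gave differences that are the response of that line alone. In KMS-12-PE, HRASLS2, a phospholipase, had 69.6, 67.3 and 83.5 TPM in CTRL and 10.9, 11.7 and 11.2 TPM in siIRF4, and was under 0.6 TPM in KMS-12-BM, a difference of 2.61 ± 0.17 (adjusted p = 1.1e-09). The sialyltransferase ST3GAL6 differed by 2.45 ± 0.17 and the filament gene VIM by 2.05 ± 0.27 (3.19 with voom). TRIM49B differed by 2.75 ± 0.22, but it belongs to a family of near-identical copies and its counts are uncertain. On the negative side, the nicotinic receptor gene CHRNA2 had 1.42, 1.30 and 1.09 TPM in KMS-12-PE CTRL, against 11.9, 11.2 and 11.3 TPM in siIRF4, a difference of -2.46 ± 0.16. VPREB1, of the surrogate light chain of pre-B cells, had 5.35, 4.98 and 5.93 TPM in CTRL and 25, 23.5 and 26.6 TPM in siIRF4 of KMS-12-PE and 0 in all KMS-12-BM libraries, a difference of -2.02 ± 0.18. ASB2, a ubiquitin ligase subunit, went from 22.5, 21.8 and 18.8 TPM to 83.4, 78.4 and 76.6 TPM in KMS-12-PE with at most 0.0951 TPM in KMS-12-BM, a difference of -1.87 ± 0.11, and CREB3L3, a liver ER stress factor, differed by -1.37 ± 0.12. Voom called neither ASB2 (-1.42) nor CREB3L3 (-1.35).

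Part of the positive calls lay in genes that the MM1 lines or other cell types express. Of 593 genes open to admixture 143 were called, a share near the 23.0% of all genes. Of these 143 calls 139 were positive, whereas 69.1% of all calls were. Among the 143, 123 were lower in siIRF4 with the larger effect in KMS-12-PE, where the MM1-specific signal was also lower. Examples were UCHL1 (difference 3.26 ± 0.39), PCP4 (2.67 ± 0.49) and CRYBB1 (2.55 ± 0.27), at 0.572%, 0.588% and 0.444% of their level in another line. UCHL1, a neuronal and plasma cell deubiquitinase, had 7.72, 6.75 and 11 TPM in CTRL of KMS-12-PE, 0.520, 0.722 and 0.0892 TPM in KMS-12-PE siIRF4, 3.38, 2.88 and 3.03 TPM in KMS-12-BM CTRL and 10.2, 4.23 and 2.59 TPM in KMS-12-BM siIRF4, with replicate 1 highest. Negative examples were SPOCK2 (-1.08 ± 0.14, or -2.79 with a pseudocount of 0.1 and -3.45 with voom) and RGS1 (-0.73 ± 0.14, or -1.23 and -1.31). Without the 593 genes, 2251 positive and 1067 negative calls were found.

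Another set of 144 genes had CTRL means of at least 1 TPM in KMS-12-PE and MM1S and under 1 TPM in all KMS-12-BM and MM1R groups. The rule used CTRL levels of KMS-12-PE, with KMS-12-BM near the floor, so it favours positive differences. Of the 144 genes, 96 were called, 95 of them positive, where 23.0% of all genes were called and 15.9% called positive. They included markers of skin, stroma and myeloid cells: S100A8, a calcium-binding protein of myeloid cells and stressed skin, had 69.4, 64.3 and 53.1 TPM in CTRL of KMS-12-PE, 17.0, 23.3 and 19.4 TPM in KMS-12-PE siIRF4 and 0 in KMS-12-BM. DCN, a stromal proteoglycan, had 34.7, 34.8 and 26.3 TPM, 6.01, 6.64 and 8.43 TPM and at most 0.126 TPM. The epithelial markers had 4 positive and 0 negative calls of 9 (44.4%) and the stromal markers 8 and 0 of 12 (66.7%). The myeloid markers had 2 and 0 of 3 (66.7%), against 15.9% of all genes called positive. Voom called 0, 2 and 0 of the epithelial, stromal and myeloid markers. Without the 144 genes, 2, 3 and 1 of these calls were left, the stromal calls were 4 with a mean of at least 5 TPM, and the myeloid calls 1 under a replicate block. The antiprotease genes SLPI and PI3 (differences 2.14 ± 0.38 and 2.12 ± 0.56) belong to the same 144, PI3 being lost with voom (2.60) and under a replicate block (2.12). Of the 174 positive differences of at least 1, 91 were of such genes or at under 10% of their level in another line, against 6 of the 77 negative ones. The same rule enters these counts. The part of admixture in these calls was not tested.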

How the data were processed

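TPM values of 24 libraries (4 lines, siIRF4 and CTRL, 3 libraries each) were used as deposited. The authors made them from reads processed with STAR and featureCounts on hg19, with FastQC and MultiQC, per the submitters' processing notes, which name no versions. Of 25370 genes listed, 28 with calendar-date symbols (at most 0.147% of TPM) and 1 without a name were left out. Genes with at least 1 TPM in at least 3 libraries (15113) were tested on log2(TPM + 1) with limma 3.58.1 (R 4.3.3), as 1 fit of 8 group means with a trended, robust prior, and the difference of effects was tested two-sided with Benjamini-Hochberg adjustment over all genes. Tables and plots used Python 3.11.15 with pandas 2.3.3, numpy 2.4.6 and matplotlib 3.10.9, and the fit was tested on simulated data. Whole reads were recovered from the TPM of 20484 genes (tolerance 0.02), at least 99.96% of TPM, and gave the depth and the voom alternative. Replicates of a group differed beyond sampling noise.

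Members and gene lists were chosen with earlier results of these data known. Named genes were IRF4 and called genes with at least 5 TPM in a KMS-12 group: those with the largest differences among genes expressed (at least 1 TPM) in both lines, in 1 line and with effects of opposite sign, up to 3 called members in each direction of each list by p, any member of the interferon, plasma cell, apoptosis and myeloma lists, and 3 in each direction among genes open to admixture. Alternatives were pseudocount, filter, scaling, prior, libraries in the fit, a replicate block, voom and leaving out each library, with gene removals added after seeing the data. Some items are not reported here.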

Additional observations from a re-analysis of the deposited data

Results flagged for a closer look

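The effect of siIRF4 differed between the lines, by the test of the difference itself, in 3476 genes. IRF4 was among them, with a difference of 0.37. Of the genes with at least 5 TPM in a KMS-12 group and not open to admixture, 5 of those named had a called difference and effects of opposite sign, each at least 0.5 in size: C1orf106 (-1.64), RAB25 (1.34), ARHGAP9 (1.13), TEX40 (-1.40) and C10orf10 (-1.19).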

How the results depend on the processing

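All 23 alternatives kept the count of called genes within 1.5 times of 3476, and 0 genes called in both the main analysis and an alternative changed sign. Leaving out 1 library gave 2828 to 3282 calls, 1854 to 2323 positive and 870 to 1082 negative, and kept 78.8% to 87.5% of the calls. Voom kept 72.8%, median-of-ratios scaling 80.9%, the KMS-12 libraries fitted alone 82.5% and a pseudocount of 0.1 85.3%. The IRF4 difference was 0.31 to 0.43 on leaving out 1 library and called throughout. Deviations of same-numbered libraries were little correlated (r of -0.01, 0.08 and 0.09 in KMS-12-BM and -0.06, -0.01 and -0.04 in KMS-12-PE). These values show no strong shared deviation but cannot settle whether the numbers pair libraries, and the labels do not say. With the replicate block, 2153 positive and 948 negative genes (3101) were called and the IRF4 difference was 0.37. Reversed differences were those of PARP14 (-0.37, but 0.035 with a pseudocount of 0.1 and 0.27 with voom), NUB1 (-0.13, not called, but 0.49 with a pseudocount of 0.1) and TNFAIP2 (0.40, but -0.014 with voom). A pseudocount of 0.1 moved the median difference of the B cell genes to -0.48, of the chemokines to 0.11, of the epithelial and stromal markers each to 1.60, of the T and NK cell markers to -0.51, of the myeloid markers to 1.20 and of the erythroid markers to 0.64. The causes were not tested. Among the named genes that kept their sign, voom ended 41 calls, a pseudocount of 0.1 18 and median-of-ratios scaling 10. The reversed PARP14 and TNFAIP2 also lost their calls with voom, and PARP14 with a pseudocount of 0.1. Depth limits genes near or under 1 TPM in a line, where the effect depends on the pseudocount. Alternatives that remove genes were chosen after seeing the data.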

Other observations

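Of 24 lysosome and autophagy genes 9 were positive and 2 negative (45.8% called, against 23.0% of all genes). Fatty acid synthesis genes had 4 and 1 of 14 (35.7%), with 6 and 3 under voom and 3 and 0 without KMS-12-BM siIRF4 replicate 1. Cholesterol synthesis genes had 2 and 1 of 27 (11.1%), with 4 and 1 without KMS-12-BM siIRF4 replicate 3. Oxidative phosphorylation genes had 3 and 4 of 33 (21.2%, near the share of all genes). NRF2 and thiol redox genes had 4 and 6 of 19 (52.6%), and nucleic acid sensor genes 3 and 4 of 21 (33.3%). INSIG1, a sterol-dependent brake on cholesterol synthesis, had 455, 429 and 446 TPM in KMS-12-BM CTRL, 266, 226 and 225 TPM in KMS-12-BM siIRF4, 245, 254 and 235 TPM in KMS-12-PE CTRL, against 196, 172 and 176 TPM in KMS-12-PE siIRF4. It was lower in siIRF4 of both lines and more so in KMS-12-BM, with a difference of -0.46. Of 20 histone cluster genes, with median effects of 0.48 and 0.33, 1 was called (5.0%), a call lost in many alternatives.

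Of 24 immediate early genes 6 were positive and 5 negative (45.8% called, against 23.0% of all genes). IER5 differed by -0.95 ± 0.11. Of 25 acetyltransferase, reader and deacetylase genes 4 were positive and 4 negative (32.0% called), with HDAC7 the most negative. KAT2B, an acetyltransferase, differed by 0.68 ± 0.11, while the acetyltransferases EP300 (0.23, adjusted p = 0.107) and CREBBP (0.22, adjusted p = 0.162) were not called. Of 8 T and NK cell markers 1 was positive and 3 negative, and their summed level was 23.6 to 25.9 TPM in KMS-12-BM CTRL, 32.5 to 36.4 TPM in KMS-12-BM siIRF4, 29.7 to 33.3 TPM in KMS-12-PE CTRL, against 64.4 to 70.0 TPM in KMS-12-PE siIRF4. Of 4 erythroid markers 2 were positive and 0 negative. For both marker lists, the shares of all genes were 15.9% positive and 7.11% negative. The erythroid calls were of HBA2 and HBD. HBA2 was lost with a pseudocount of 0.1 and with voom (adjusted p = 0.122 and 0.246). HBD was lost in the KMS-12 libraries alone (adjusted p = 0.093) and without KMS-12-BM CTRL replicate 1 or 3 (0.64 and 0.62).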
